A study of Mus musculus with 12 samples.

Results

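Short coding-exon peaks are m6A peaks that the authors annotated to a coding exon and that cover at most 1000 bases of genome from start to end. They were chosen by annotation and span alone, without regard to their strength. The Mettl3 KO list held 4180 of them among 41153 peaks (10.2%, 95% exact binomial interval 9.87 to 10.5), and the WT list held 3152 among 36682 (8.59%, 8.31 to 8.88). They lay on 2911 genes in the KO list and 2337 genes in the WT list. Coding-exon peaks of more than 1000 bases, called long coding-exon peaks here, numbered 6144 in the KO list and 4574 in the WT list, and all spans are counted on the genome, with any intron between start and end included.

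The cells were BV2, an immortalised mouse microglial line, of genotype Mettl3 KO or WT, and every library came from cells given bacterial lipopolysaccharide (LPS), so there was no untreated group. Each genotype was sampled by 3 libraries of RNA pulled down with an m6A antibody (IP) and 3 input libraries, 12 in all. How Mettl3 was knocked out, whether the KO cells were 1 clone, and the dose and duration of LPS are matters not given in the sources used here, and the extraction text names neuroblastoma cells where the sample labels name BV2. The deposited values were 1 peak list per genotype, so no spread between replicates could be measured and no difference between the genotypes was tested.

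N6-methyladenosine is placed on messenger RNA by a writer complex whose catalytic subunit is METTL3, is removed by the demethylases FTO and ALKBH5, and is bound by YTH-domain proteins that affect splicing, decay and translation of the marked RNA. The mark is known to be dense near stop codons, in 3' UTRs and in long internal exons, and sparse in short internal exons close to splice junctions. In microglia, the resident immune cells of the brain, LPS signals through TLR4 to NF-kB and AP-1 factors and to the interferon response.

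The lists carry no sequence, so letters could be read only where a short coding-exon peak ran over a RefSeq promoter window, which covers 250 bases before to 50 bases after a gene's start, and which 28 KO and 23 WT peaks did. In these windows, GGACT, a common form of the m6A motif, stood on the peak's own strand in 4 of the 28 KO peaks (Prickle4, Fez2, Mkrn1 and Taf1c) and in 3 of the 23 WT peaks (Fez2, Ank2 and Rex1bd). Stretches from 4 of these genes are shown as examples of the letters under such peaks. The Fez2 stretch lies in the window at the start of Gm32336 and the Prickle4 stretch in that of Tomm6, while the other 2 lie in the window of the gene named. They are 30 bases each, 5' to 3', from RefSeq assembly GRCm38.p6, with GGACT in capitals and the other motif forms not searched.
Fez2, both lists, chr17:78400464-78400493, minus strand: ttcaagcaaagaGGACTggccagtgggcac
Ank2, WT list, chr3:126943598-126943627, minus strand: gagcatgccagaGGACTgtcccattcaaga
Prickle4, KO list, chr17:47688448-47688477, minus strand: ggtggggtggggGGACTtatgtagcgagat
Taf1c, KO list, chr8:119602790-119602819, minus strand: atgagagagcagccatGGACTggcctgccg
The Fez2 peak had a log2 of IP over input of 0.89 in the KO list and 0.89 in the WT list. The Ank2 peak had 1.52 in the WT list, the Prickle4 peak 2.64 in the KO list and the Taf1c peak 0.68 in the KO list. Of 32851 RefSeq promoter windows, 11.8% held GGACT within the same 131-base stretch that the Fez2 peak covers, and the shares were 9.65% for Ank2, 22.5% for Prickle4 and 9.75% for Taf1c. A match of these letters is a description of the window and not a measured site.

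The labelled cell type was checked against markers that carried a peak of any class. Of 12 microglial markers, 10 carried one in the KO list and 10 in the WT list, with P2ry12 and C1qa absent from both. None of 7 neuroblastoma markers and none of 4 astrocyte markers had a peak in either list, 1 of 10 neuronal markers did (Tubb3), and so did 1 of 5 oligodendrocyte markers (Mbp). In longer lists, 11 of 20 microglial genes, 1 of 13 neuronal, 0 of 8 neuroblastoma, 0 of 7 astrocyte and 2 of 8 oligodendrocyte genes had a peak in each list. Peaks measure enrichment over input and not RNA amount, so an absent peak does not show an absent RNA and these counts are no test of cell identity. Among the microglial markers, the receptor tyrosine kinase Csf1r had a short coding-exon peak of 0.34 in the KO list and 0.47 in the WT list, on largely shared bases. The phosphatase Ptprc had one of 0.76 in the KO list and one of 0.46 in the WT list, at different places. Mbp, a myelin protein, had overlapping short coding-exon peaks of 1.72 in the KO list and 1.38 in the WT list.

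Most short coding-exon peaks were weak. Every log2 value and adjusted p given is from the authors' deposited lists, and the log2 is that of IP over input for 1 peak. The median was 0.54 in the KO list (interquartile range 0.45 to 0.72, a 1.46-fold enrichment) and 0.65 in the WT list (0.55 to 0.86, 1.57-fold). All other peaks had medians of 0.72 in the KO list and 0.86 in the WT list, and long coding-exon peaks had 0.56 and 0.68 in the KO and WT lists. At 4-fold enrichment or more there were 87 short coding-exon peaks in the KO list (2.08%, 1.67 to 2.56), against 3.93% of all KO peaks, and 147 in the WT list (4.66%, 3.95 to 5.46), against 11.7% of all WT peaks. Only 17 KO and 8 WT short coding-exon peaks had a deposited adjusted p above 0.05.

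The strong end did not follow the same order as the median. In the KO list the share at 4-fold or more was 2.08% for short coding-exon peaks, 1.22% for long ones and 1.63% for 3' UTR peaks of at most 1000 bases, although those 3' UTR peaks had the higher median, 0.70. In the WT list the shares were 4.66% for short coding-exon peaks, 5.77% for long ones and 3.68% for 3' UTR peaks of that span, whose median was 0.75. At 16-fold or more the KO list had 4 short coding-exon peaks (0.0957%, against 0.151% of all KO peaks). The WT list had 20 (0.635%, against 0.676% of all WT peaks). The span limit itself marked no step in strength: in the KO list the 177 short peaks within 100 bases of the limit had a median of 0.54 and the 171 longer ones 0.55, and in the WT list the 141 short ones had 0.67 and the 148 longer ones 0.66. Just inside it stood Kmt2c (1000 bases, 1.37) and Zfp462 (1000 bases, 1.03) in the KO list and Ank2 (1000 bases, 1.52) and Zfp574 (1000 bases, 1.37) in the WT list. Just outside it stood Hnrnpa2b1 (1001 bases, 0.93) and Traf1 (1001 bases, 0.56) in the KO list and Cog6 (1001 bases, 0.49) and Fmr1 (1002 bases, 0.51) in the WT list.

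**Figure D1:**
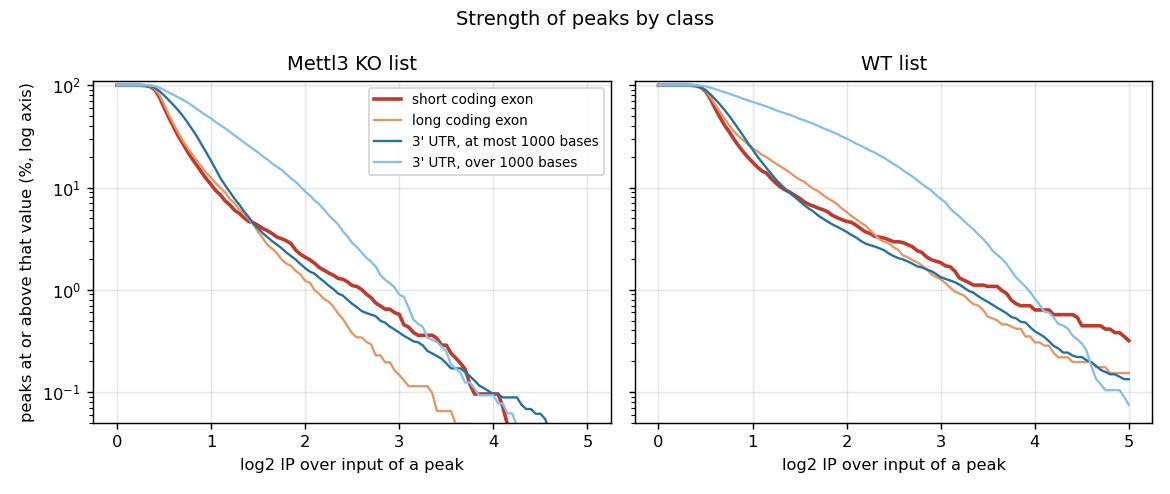
Percentage of peaks (y axis, log scale) at or above each log2 of IP over input (x axis, shown up to 5) for 4 peak classes in the Mettl3 KO list (left) and the WT list (right). The line of short coding-exon peaks starts below that of short 3' UTR peaks and lies above it at a log2 of 2, at 2.08% against 1.63% in the KO list and 4.66% against 3.68% in the WT list.

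The strongest short coding-exon peaks of the KO list lay on genes of mixed function, and all of the leading 8 had a counterpart in the WT list. Among all KO peaks at 4-fold or more, 8.47% had no WT partner. Olfr49, an olfactory receptor gene, had a KO peak of 7.14 (adjusted p = 2.96e-09) on chromosome 14 from 54282378 to 54282527, and the WT peak over the same bases had 3.70 (adjusted p = 3.78e-10). Acp4, an acid phosphatase gene, had 4.60 in the KO list (adjusted p = 8.21e-16) and 3.20 in the WT list (adjusted p = 1.91e-13) for peaks that began at the same base of chromosome 7, 44252148. In both genes these were the only peaks in each list. Macf1, a large protein that links microtubules to actin, had a KO peak of 4.14 over which the WT list had a 5' UTR peak of 3.28. Ahnak2, a very large scaffold protein, had a KO peak of 4.09 (adjusted p = 4.73e-75), and its WT partner was a long coding-exon peak of 3.87. Fosb, a subunit of the AP-1 transcription factor, had a KO peak of 3.79 (adjusted p = 4.30e-08), and the WT peak over it, annotated as 3' UTR, had 3.58. The 3 that completed the strongest 8 were the protocadherin Pcdhb17 (3.74 in the KO list, 4.72 in the WT list), the zinc finger gene Zfp974 (3.71, under a WT 3' UTR peak of 1.69) and the metallopeptidase gene Adam1a (3.68, under a WT 5' UTR peak of 2.49). Of the 8 WT peaks that these overlapped, 7 were themselves above a log2 of 2.

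The strongest short coding-exon peaks of the WT list had no counterpart of any class in the KO list. Lrfn2, a synaptic adhesion protein, had 7.32 (adjusted p = 1.19e-09) in a 275-base peak on chromosome 17 from 49070904 to 49071178. Cyp2e1, a liver cytochrome P450, had 7.18 in 100 bases on chromosome 7 from 140774605 to 140774704. Apoa1, the main protein of high-density lipoprotein, had neighbouring peaks of 6.58 and 6.38, and Hpx, the haem-binding protein of blood plasma, had 6.46. The others of the strongest 8 genes were Gm11595 (6.70), the zinc finger gene Zfp354c (6.54), Spata31d1b (5.52) and Ache, the acetylcholinesterase gene (5.28). None of these 8 genes had a peak of any class in the KO list. Their deposited adjusted p values were modest for such folds: over the 20 WT short coding-exon peaks at 16-fold or more they ran from 1.26e-32 to 4.37e-07 with a median of 2.31e-08, while the other WT peaks at 16-fold or more had a median of 1.79e-24. These 20 peaks were also narrow, with a median span of 212.5 bases against 1000 bases for those other WT peaks. The lists give no read coverage for any peak.

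The strongest WT short coding-exon peaks that did have a KO partner were lower in the KO list, with Olfr49 and Acp4 as the exceptions among those named. Zfyve28, a FYVE-domain protein of endosomes, had 3.59 in the KO list and 4.96 in the WT list (WT adjusted p = 1.26e-32). Pcdhb16, a neighbour of Pcdhb17 in the protocadherin beta cluster, had 2.23 in the KO list and 4.45 in the WT list. Dchs1, a very large cadherin, had 2.61 in the KO list and 3.73 in the WT list, and the adhesion receptor gene Adgrf3 had 3.01 and 3.81 in the KO and WT lists.

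The genes of the strong peaks were also counted by name, a grouping chosen after the values were seen. Genes named Zfp, Zbtb, Zkscan or Zscan made up 5 of 71 genes with a short coding-exon peak at 4-fold or more in the KO list (7.04%) and 18 of 123 in the WT list (14.6%). Their share among all genes with a short coding-exon peak was 4.23% in the KO list and 3.81% in the WT list, and among genes with any peak at 4-fold or more it was 6.08% and 6.13% in the KO and WT lists. Protocadherins supplied 3 of the 71 KO genes and 6 of the 123 WT genes, although only 10 KO and 11 WT genes of that family had any peak. Many of the strong peaks stood alone on their gene: 27 of the 87 KO peaks at 4-fold or more (31.0%) and 27 of the 147 WT ones (18.4%) were the sole peak of the gene, against 2.20% of all short coding-exon peaks in the KO list and 2.89% in the WT list. Sole peaks were not counted among strong peaks of other classes, so this is not shown to be particular to short coding-exon peaks.

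Short coding-exon peaks were spread along the gene with more of them towards its 3' side, 66.1% in the KO list and 65.1% in the WT list lying at or past the midpoint. Positions are midpoints along the annotated gene from 5' to 3', introns included, since the lists give no exon structure. The median place was 65.2% in the KO list and 64.6% in the WT list. In the last 20% of the gene lay 30.3% of KO and 29.7% of WT short coding-exon peaks, beside 24.1% and 23.5% of the long ones. For 3' UTR peaks of at most 1000 bases, which lie towards the gene's end by their annotation, it was 87.8% in each list. The first 10% held 5.0% in the KO list and 5.87% in the WT list, beside 2.77% and 2.69% of the long coding-exon peaks in the KO and WT lists.

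**Figure D2:**
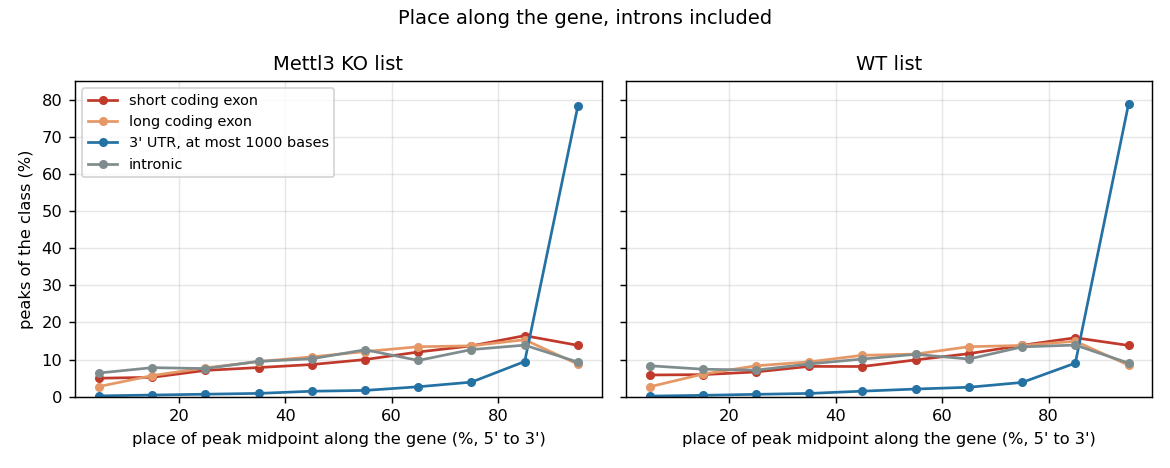
Percentage of the peaks of a class (y axis) by the place of the peak's midpoint in steps of 10% of the annotated gene, 5' to 3' and introns included (x axis), for 4 classes in the Mettl3 KO list (left) and the WT list (right). Short coding-exon peaks rise slowly towards the 3' side, with 30.3% (KO) and 29.7% (WT) in the last 20%, where 87.8% of short 3' UTR peaks lie in each list.

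Spans were short and often whole steps of 25 bases. The median span was 350 bases in the KO list (interquartile range 175 to 550) and 325 bases in the WT list (175 to 529), and the shortest had 100 bases in both lists. A span that is a multiple of 25 was found for 68.0% of KO and 71.7% of WT short coding-exon peaks, beside 5.32% and 6.54% of long coding-exon peaks and 96.2% and 96.6% of intronic peaks of at most 1000 bases, in the KO and WT lists. Arbitrary spans would give 4%. Peaks on the 25-base steps had medians of 0.57 against 0.50 for the others in the KO list and 0.67 against 0.60 in the WT list. They also held 75 of the 87 KO peaks and 132 of the 147 WT peaks at 4-fold or more.

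Genes that carried a short coding-exon peak were long and had many peaks. They made up 22.3% of the genes with any peak in the KO list and 17.5% in the WT list. Their median length was 27795 bases in the KO list, against 17068 for other genes with a peak, and 28747 bases in the WT list, against 17336. They averaged 4.94 peaks per gene in the KO list (2.64 on the other genes) and 4.46 in the WT list (2.37). Most had 1 short coding-exon peak, 2058 genes in the KO list (70.7%) and 1766 in the WT list (75.6%). It was the gene's strongest peak on 408 KO genes (14.0%) and 345 WT genes (14.8%), so elsewhere a peak of another kind was stronger.

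Genes of large proteins headed the counts per gene. Dst, a spectraplakin that joins filaments to cell junctions, had 19 short coding-exon peaks in the KO list (0.44 to 2.92, median 0.81) among its 44 peaks, and 9 in the WT list (0.57 to 0.97, median 0.63) among its 26. Alms1, a centrosomal protein mutated in Alström syndrome, had 9 in each list, with medians of 0.66 in the KO list and 0.68 in the WT list, and 4932438A13Rik also had 9 in the KO list, with a median of 0.61. The centrosomal Cep295, the ubiquitin ligase Herc1, the microtubule-binding Map1b and Zfyve26 each had 8 in the KO list. In the WT list, Crocc, the rootlet protein of cilia, had 7 (0.67 to 1.09), and Ank2, Atrx, Chd8, Dop1a, Pdcd11 and Pwwp3a had 6 each. Ahnak2 differed from these in level: its 6 short coding-exon peaks in the KO list ran from 2.27 to 4.09 (median 3.40) and its 5 in the WT list from 3.01 to 3.66 (median 3.50). Mitochondrial transcripts contributed short peaks too: all 4 KO peaks and 2 of 3 WT peaks of the mitochondrial chromosome belonged to this class, and mt-Nd6, a subunit of respiratory complex I, had a peak of the same coordinates in both lists with 0.94 in the KO list and 0.90 in the WT list.

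The next question was how many of these places were marked in both lists. A partner is any peak of the other list on the same strand that shares at least 1 base, and the one sharing the most bases was taken. No WT partner was found for 1862 of the 4180 KO short coding-exon peaks (44.5%), against 27.1% of all KO peaks. No KO partner was found for 1109 of the 3152 WT ones (35.2%), against 22.8% of all WT peaks. The shares with a partner were thus 55.5% (53.9 to 57.0) in the KO list and 64.8% (63.1 to 66.5) in the WT list, below those of long coding-exon peaks, 63.3% and 78.6% in the KO and WT lists. A partner was found for 37.7% of the KO peaks and 48.1% of the WT peaks that spanned 100 bases, and for 66.5% and 78.5% of those of 501 to 750 bases in the KO and WT lists. An overlap of 1 base is met more readily by a wide peak. Among all peaks of at most 1000 bases, 30.3% in the KO list and 28.9% in the WT list had no partner. For intronic peaks of that span it was 55.1% and 51.9%, and for 3' UTR peaks of that span 22.5% and 21.4%.

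The share with a partner was lowest among the weakest peaks in the KO list and among the strongest in the WT list. In the KO list a WT partner was found for 44.98% of short coding-exon peaks with a log2 below 0.5, 56.0% of those between 0.5 and 0.75, 71.9% of those between 0.75 and 1, and 70.8% of the 24 at 3 or more. All other KO peaks were also lowest below 0.5, at 54.9%, with 82.5% between 0.75 and 1 and 90.3% at 3 or more. In the WT list a KO partner was found for 69.3% of those below 0.5, 65.3% of those between 1 and 1.5, and 41.4% of the 58 at 3 or more (28.6 to 55.1). Other WT peaks at 3 or more had a KO partner in 79.6% of cases (77.2 to 81.9). At 4-fold or more, 25 of 87 KO short coding-exon peaks lacked a WT partner (28.7%, against 8.47% of all KO peaks of that strength) and 64 of 147 WT ones lacked a KO partner (43.5%, against 16.3%). At 16-fold or more, 0 of 4 KO peaks lacked one (16.1% of all such KO peaks) and 17 of 20 WT peaks did (42.3% of all such WT peaks). Of those 17, 14 lay on genes without any KO peak. Because the lists hold only called peaks, a missing partner does not show that the place was unmarked.

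**Figure D3:**
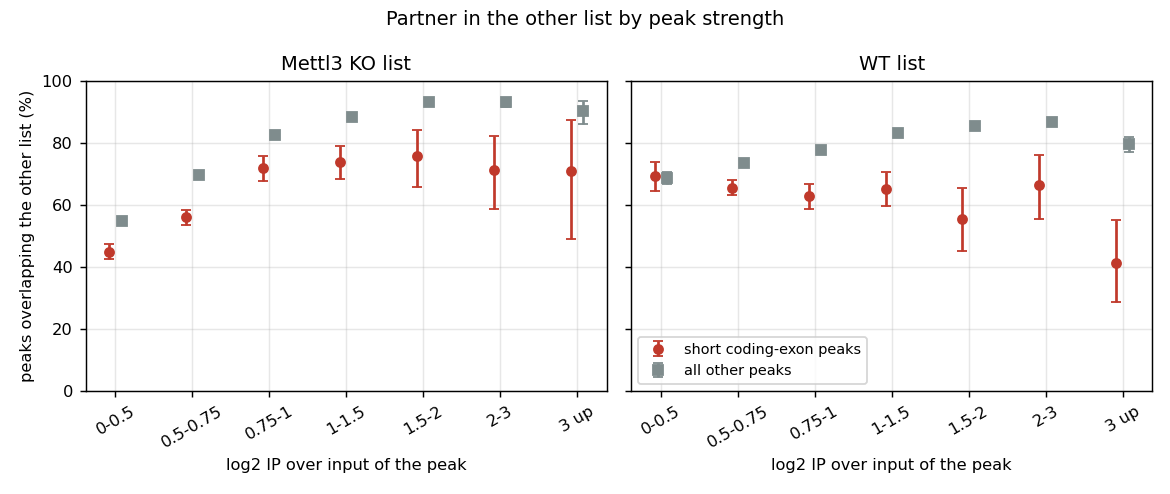
Percentage of peaks that overlap a peak of the other list on the same strand (y axis) by log2 of IP over input (x axis, bins) for short coding-exon peaks (circles) and all other peaks (squares), KO list left and WT list right. Bars are 95% exact binomial intervals and cover counting only. At a log2 of 3 or more the shares of short coding-exon peaks are 70.8% in the KO list and 41.4% in the WT list.

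The strongest KO short coding-exon peaks without a WT partner were lower than the WT ones without a KO partner. Fem1al headed them with 3.52 (adjusted p = 3.21e-08), followed by Pcdhb16 with 3.40, Gm5431 with 3.18, the chromatin-associated Bahcc1 with 3.06, Grin3b with 3.03, Xpo7 with 3.03, Gm7324 with 3.03 and Noxo1 with 2.58 (adjusted p = 1.06e-12). Grin3b encodes an NMDA receptor subunit, Xpo7 a nuclear transport receptor and Noxo1 an organiser of the NADPH oxidase NOX1. Fem1al, Bahcc1, Grin3b, Gm7324 and Noxo1 had no WT peak of any class. Pcdhb16 had other WT peaks of up to 4.56, and Xpo7 had WT peaks of up to 0.82.

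Gene by gene, both lists held a short coding-exon peak for 1383 genes, which is 47.5% of the KO genes and 59.2% of the WT genes. Of the 1528 genes with one only in the KO list, 1475 had a WT peak of another class and 53 had none. Of the 954 with one only in the WT list, 865 had a KO peak of another class and 89 had none. Most genes that differed between the lists in this class therefore still had peaks in both. The share of all genes with a peak that had one in both lists was not computed, so these counts have no background beside them. Genes with a short coding-exon peak also had more peaks than other genes, 4.94 against 2.64 per gene in the KO list and 4.46 against 2.37 in the WT list.

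Partners were often of another class, and the differences varied with that class. For KO short coding-exon peaks, the WT partner was also short and coding for 1138 (49.1% of those with a partner), a long coding-exon peak for 524 (22.6%), a 3' UTR peak for 397 (17.1%), a 5' UTR peak for 166 (7.16%) and an intronic peak for 93 (4.01%). Where both were short and coding, the medians were 0.61 in the KO list and 0.69 in the WT list. Where the WT partner was a 3' UTR peak, the KO short coding-exon peaks had a median of 0.59 and their WT partners 1.58, with a median KO minus WT of -0.81. WT short coding-exon peaks under a KO 3' UTR peak were fewer, 189 (9.25%), and there the KO median was 0.85 and the WT median 0.61, a difference of 0.17.

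**Figure D4:**
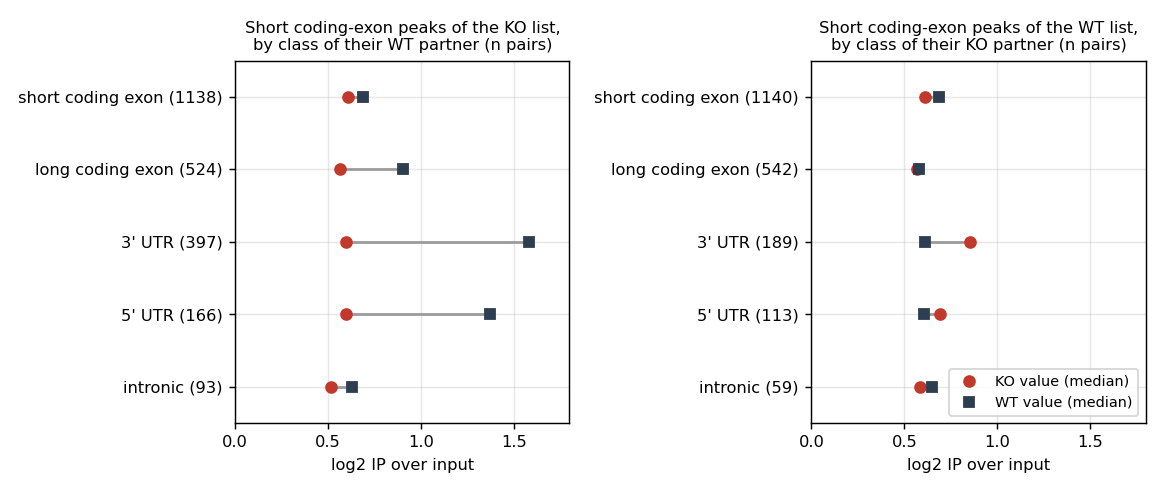
Median log2 of IP over input (x axis) of the KO value (circles) and the WT value (squares) for short coding-exon peaks of the KO list (left) and of the WT list (right), by the class of the overlapping peak in the other list (rows, number of pairs in brackets). The KO short coding-exon peaks under WT 3' UTR peaks have medians of 0.59 (KO) and 1.58 (WT), and those under WT short coding-exon peaks 0.61 and 0.69.

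The 8 lowest KO minus WT values of KO short coding-exon peaks belonged to the following genes, 7 of them with a WT 3' UTR peak as the partner. The KO value is that of the short coding-exon peak alone and the WT value that of its partner, so the pair is not the gene's level in each list. The KO list held 3 peaks on Cebpd, 2 on Ier5l, 4 on Xylt2 and 5 on Mfsd4b4, and the others are not compared here. Cebpd, a C/EBP transcription factor that inflammatory signals induce, had 0.65 in the KO list and 3.72 in the WT list. The values of Ier5l, an immediate early response family gene, were 0.80 in the KO list and 4.51 in the WT list. Aldh1b1, a mitochondrial aldehyde dehydrogenase, had 0.44 and 4.17 in the KO and WT lists, and Xylt2, a xylosyltransferase of proteoglycan synthesis, had 0.79 and 3.67. Mfsd4b4 had 0.61 and 3.23 and Bet1l, a SNARE protein of the Golgi, 0.52 and 3.12, while Gm12185 had 2.27 under a long WT coding-exon peak of 5.09. Gorasp1, a Golgi stacking protein, had 0.43 in the KO list under a WT 3' UTR peak of 4.59 that is annotated to Cx3cr1. The opposite case was seen for Ncl, the nucleolar protein nucleolin (KO 3' UTR peak 2.20, WT short coding-exon peak 0.43) and for Pick1 (2.66 and 0.80). A partner carried another gene's name for 9 KO and 6 WT peaks. The WT short coding-exon peak of Cx3cr1, the fractalkine receptor of microglia, had 1.32 and lay under a KO 3' UTR peak of 3.46 that spans 150630 bases and is annotated to the neighbouring Gorasp1.

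Over all partners, KO short coding-exon peaks were lower than their WT partners in 1892 of 2318 cases (81.6%, against 73.1% of all KO peaks with a partner), with a median KO minus WT of -0.19 (interquartile range -0.53 to -0.046). The difference was -1 or less for 290 (12.5%, against 8.77%) and 1 or more for 9 (0.388%, against 0.3%). Seen from the WT list, the KO partner was lower in 1259 of 2043 cases (61.6%, against 67.9%), with a median of -0.053 (-0.18 to 0.075). There the difference was -1 or less for 42 (2.06%, against 5.15%) and 1 or more for 23 (1.13%, against 0.615%). The medians over all peaks were -0.16 from the KO list and -0.11 from the WT list. After subtracting those, the median of the WT short coding-exon peaks was 0.056 and that of the KO ones -0.033. The sign seen from the WT list thus depends on whether the median over all peaks is subtracted. Scaling between the lists and a general difference between the genotypes would both sit in that median and cannot be told apart here.

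A narrower set is the 1097 pairs in which both peaks were short and coding and each was the other's best overlap. The KO peak was lower in 785 of them (71.6%, 68.8 to 74.2), close to the 70.3% of all 26153 such pairs of any class. The median KO minus WT was -0.095 (interquartile range -0.23 to 0.023), beside -0.12 over all pairs, -0.11 over pairs of long coding-exon peaks and -0.044 over pairs of 3' UTR peaks of at most 1000 bases. It was -1 or less in 30 pairs (2.73%, against 5.34%) and 1 or more in 5 (0.456%, against 0.268%). The gap was wider among strong pairs: the median was -0.073 for the 501 pairs with a mean log2 between 0.5 and 0.75, -0.19 for the 149 between 1 and 1.5, and -0.51 for the 72 at 1.5 or more. The corresponding medians over all pairs were -0.054, -0.30 and -0.72. In the 98 pairs of identical coordinates the median was -0.041, with 65 lower and 33 higher in the KO list.

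**Figure D5:**
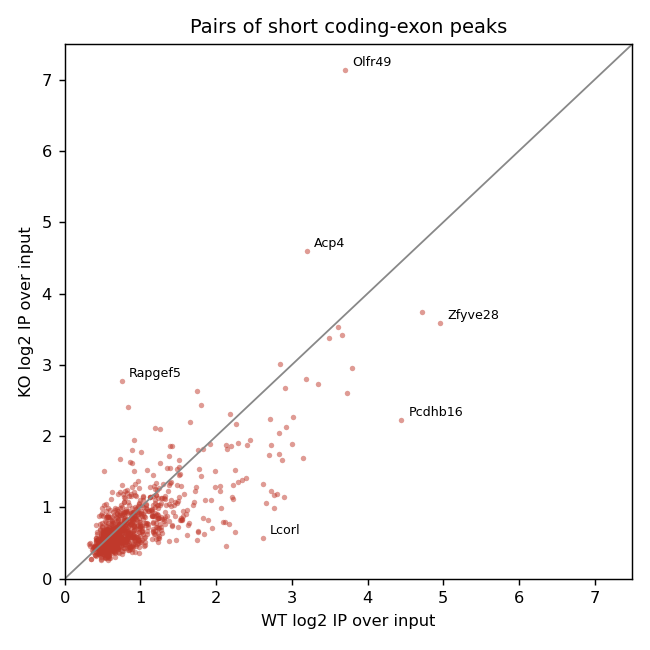
KO (y axis) against WT (x axis) log2 of IP over input for the 1097 pairs in which both peaks are short and coding, 1 point per pair, with the line of equal values. Points below the line, 785 of 1097, are lower in the KO list; Olfr49 lies at 7.14 (KO) and 3.70 (WT) and Pcdhb16 at 2.23 (KO) and 4.45 (WT).

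Pcdhb16 had the lowest KO minus WT of these pairs, -2.21. Lcorl, a nuclear receptor corepressor family gene, had 0.57 in the KO list and 2.62 in the WT list (adjusted p = 0.0242 in the KO list and 8.38e-18 in the WT list). The zinc finger gene Zfp407 had 0.99 and 2.77 in the KO and WT lists, and Btbd17 had 1.14 and 2.90. Cebpa, a C/EBP factor needed for myeloid differentiation, had 0.66 in a 100-base KO peak (adjusted p = 0.0281) and 2.25 in a 150-base WT peak (adjusted p = 1.50e-06). Trim65, a TRIM ubiquitin ligase, had 0.46 in the KO list and 2.13 in the WT list, and Zfp786 and Mamdc4 had differences of -1.61 and -1.59. Outside these pairs, WT short coding-exon peaks of Magee1 (1.77 in the KO list, 3.65 in the WT list) and Gm5431 (2.18 and 3.96) lay under long coding-exon peaks of the KO list.

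Higher values in the KO list were fewer. Besides Olfr49 and Acp4, with differences of 3.44 and 1.40, Rapgef5, an exchange factor for the small GTPase Rap, had 2.78 in the KO list (adjusted p = 6.31e-08) and 0.76 in the WT list (adjusted p = 0.00412). Bsn, a presynaptic scaffold protein, had 2.41 in the KO list and 0.84 in the WT list. Rubcnl, a regulator of autophagosome maturation, had 1.94 and 0.91 in the KO and WT lists, and Ascc3, a helicase that acts on stalled ribosomes, had 1.68 and 0.73. Chd9, a chromatin remodeller, had 2.11 in the KO list and 1.20 in the WT list. With partners of another kind, Rapgef6, another Rap exchange factor, had 2.50 in the KO list under a long WT coding-exon peak of 0.81, and A430033K04Rik had 3.63 in the KO list under a WT 3' UTR peak of 2.42.

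The shares of genes with a short coding-exon peak in the gene groups described next stand beside 22.3% of all genes with a peak in the KO list and 17.5% in the WT list, and no group was tested against these. Of 13 writer genes, all with a peak of some class in both lists, only Pcif1, which methylates the adenosine next to the cap, had one, of 0.43 in the KO list. Of the erasers, Alkbh5 had one of 0.48 in the KO list, and neither gene had one in the WT list. Of 14 readers with a peak in each list, 4 had a short coding-exon peak in the KO list and 4 in the WT list (28.6% in each). Ythdc2, a YTH-domain helicase, had 0.89 in the KO list and 0.81 in the WT list, at different places, and Prrc2a had 0.48 and 0.72 in the KO and WT lists. Hnrnpa2b1 (0.41) and Elavl1 (0.48), RNA-binding proteins, had one in the KO list only, and the nuclear reader Ythdc1 (0.67) and Rbmx (0.60) in the WT list only.

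The next groups belong to the LPS response. For genes with a short coding-exon peak in both lists, the values set side by side are those of the strongest one in each list, which need not overlap. Over all 1383 such genes the KO value was lower in 936 (67.7%), with a median KO minus WT of -0.083. The difference was -1 or less in 37 (2.68%) and 1 or more in 16 (1.16%). Of the BATF and AP-1 group, 5 of 19 genes with a KO peak had a short coding-exon peak, against 1 of 20 with a WT peak, beside 22.3% and 17.5% of all genes with a peak in the KO and WT lists. Those in the KO list only were Fosb (3.79), Fos (0.76), Fosl1 (0.51) and Irf8 (0.38), all of which also had WT peaks of other kinds, and Mafg had 0.39 in the KO list and 0.75 in the WT list. Batf had no short coding-exon peak in either list. In the TLR4 and NF-kB group it was 6 of 30 genes in the KO list and 3 of 31 in the WT list (9.68%), the KO share being near that of all genes. Nfkbie, an IkB inhibitor of NF-kB, had the highest, 1.09 in the KO list under a WT 3' UTR peak of 2.02. Nfkb2, an NF-kB subunit, had 4 in the KO list (highest 0.59) and none in the WT list, and Tnfaip3, the A20 inhibitor, had one of 0.68 in the WT list only.

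Cytokine and effector genes had 4 of 22 in the KO list (18.2%, against 22.3% of all genes) and 1 of 23 in the WT list (4.35%, against 17.5%). Il1b, the interleukin-1 beta gene, had a KO short coding-exon peak of 1.55 over 746 bases on chromosome 2 from 129367396 to 129368141, with no WT partner there. The WT list held 1 Il1b peak elsewhere, of another class, with 0.90. Ptgs2, the inducible cyclooxygenase, had 0.75 in the KO list and 0.49 in the WT list. The interferon group had 8 of 28 genes in the KO list (28.6%) and 13 of 29 in the WT list (44.8%). In 7 genes of that group both lists had one, and the KO value was lower in 6. The median KO minus WT was -0.061, beside -0.083 over all genes with one in both lists. Of the 6, Irf5 (-0.027), Irf7 (-0.025) and Oas2 (-0.061) differed least, and Cmpk2 was higher by 0.047. The strongest KO peaks of Oas2 and Cmpk2 had no WT partner. Irf9 and Stat2, partners in the factor ISGF3, had 0.57 and 0.50 in the KO list and 1.16 and 1.02 in the WT list, each at places that did not overlap between the lists. Ifih1, the RNA sensor MDA5, had 0.58 in the KO list and 0.85 in the WT list, also at places that did not overlap. Mx2 (0.75), Gbp3 (0.72), Irf3 (0.62) and the sensors Ddx58 (0.53) and Dhx58 (0.56) had one in the WT list only.

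Feedback inhibitors had 6 of 21 genes in the KO list (28.6%, against 22.3% of all genes) and 6 of 22 in the WT list (27.3%, against 17.5%). The 3 with one in both lists, the phosphatase Dusp1 (0.69 and 0.84), the receptor Tgfbr2 (0.51 and 0.67) and the repressor Bcl6 (0.49 and 0.73), had the lower value in the KO list, given first. The Dusp1 KO peak had no WT partner, so the values of Dusp1 are from different places. Klf2 (0.89), Zfp36 (0.85) and Nr4a1 (0.75) had one in the KO list only, each under a higher WT peak of another class. That WT peak was a 5' UTR peak of 1.19 in Klf2 and a 3' UTR peak of 1.16 in Zfp36 and of 1.90 in Nr4a1. In the inflammasome group, 5 of 12 genes in the KO list and 3 of 12 in the WT list had one. Casp1, the protease that activates interleukin-1 beta, had 0.91 in the KO list and 0.66 in the WT list at different places, and the KO value was the lower one at each place, since a WT 5' UTR peak of 1.14 lay over the KO peak and a KO peak of 0.47 under the WT one. The sensor Nlrp1b had one of 0.96 in the KO list only, without a WT partner, while its WT peaks of other classes reached 3.38.

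Chromatin regulators and chaperones had the largest shares of genes with such peaks among the groups of more than 2 genes. For chromatin regulators it was 19 of 29 genes in the KO list (65.5%) and 20 of 29 in the WT list (69.0%), against 22.3% of all genes in the KO list and 17.5% in the WT list, with a median KO minus WT of -0.053 over 16 genes. Arid1b, a SWI/SNF subunit, had a KO peak of 1.45 near the gene's start on chromosome 17 that overlapped several WT short coding-exon peaks. The WT peak that shared the most bases with it gave a KO minus WT of -0.36, while the strongest one there had 3.10. Kmt2c and Kmt2b, histone H3 methyltransferases, had 1.37 and 1.07 in the KO list and 0.82 and 0.60 in the WT list, at places that do not overlap. The WT peaks over those KO peaks were also annotated to coding exons and had 1.58 in Kmt2c and 2.03 in Kmt2b. The strongest short coding-exon peaks of the remodeller Chd8 had 0.76 in the KO list and 1.24 in the WT list. The WT peak sharing the most bases with that KO peak was another one, of 0.97. Chaperones had 16 of 27 genes in the KO list (59.3%) and 13 of 26 in the WT list (50.0%), with 6 genes lower and 6 higher in the KO list. Hsp90b1, the chaperone of the endoplasmic reticulum, had overlapping short coding-exon peaks of 0.74 in the KO list and 0.46 in the WT list, but the WT peak that shared the most bases with the KO one was a 3' UTR peak of 0.80. Hspa8 had 0.22 in the KO list and 0.58 in the WT list, each under a 3' UTR peak of the other list.

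Cytosolic ribosomal proteins had 23 of 75 genes in the KO list (30.7%, against 22.3% of all genes) and 13 of 74 in the WT list (17.6%, against 17.5%), and of the 10 in both, 4 were lower and 6 higher in the KO list (median 0.028). Rpl30 had 0.99 in the KO list and 0.73 in the WT list, and Rps2 had 0.24 and 0.50 at different places, with a KO 3' UTR peak of 0.67 over the WT one. Translation factors had 12 of 35 genes in the KO list (34.3%) and 9 of 35 in the WT list (25.7%). Their median of 0.0073 became -0.036 when a gene's peaks were averaged or when only peaks with an adjusted p of at most 0.001 were kept. Eif2s2, a subunit of initiation factor eIF2, had 1.17 in the KO list and 1.16 in the WT list, and Eif4g1 had 0.30 and 0.66. The lowest value of any short coding-exon peak, 0.14, was that of the elongation factor Eef1a1 in the KO list. Glycolytic enzymes had 5 of 15 genes in the KO list (33.3%) and 6 of 15 in the WT list. Over the 3 in both lists, all lower in the KO list, the median KO minus WT was -0.031. Pkm, pyruvate kinase, differed most, with 0.25 in the KO list and 0.81 in the WT list. The differences were -0.0009 for Pfkl and -0.031 for Pfkp. In the actin and filament group, 10 of 26 genes in the KO list (38.5%) and 11 of 26 in the WT list (42.3%) had one, and 5 of the 7 in both were lower in the KO list. Macf1 was one of the other 2, with strongest values of 4.14 in the KO list and 1.94 in the WT list at different places.

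Proteasome subunits had 10 of 36 genes in the KO list (27.8%, against 22.3% of all genes) and 8 of 36 in the WT list (22.2%, against 17.5%), with 4 lower and 2 higher in the KO list. The cell cycle group had 9 of 34 in the KO list (26.5%) and 6 of 34 in the WT list (17.6%), and Myc, which drives growth, had one of 1.27 in the WT list only. Lysosomal genes had 4 of 25 in the KO list and 2 of 23 in the WT list (8.70%). Of 18 histone symbols looked up, some of them older names, 4 were found with a peak in each list, and none of those 4 had a short coding-exon peak.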

How the data were processed

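Libraries of m6A IP and input RNA from BV2 cells were reduced by the authors to a deposited list of peaks for each genotype, 2 in all. For every peak the authors gave, per the file headers, its start and end, annotation class and gene, the log2 of IP over input, and the p-value with its adjusted form. Per the submitters' processing notes, fastp, FastQC, HISAT2, HOMER, StringTie and edgeR were used, without further detail. Which tool called peaks and how, on which build and whether on pooled replicates is not given in the sources used here, and depth per library is unknown. No columns of other samples were found.

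Peaks annotated "exonic" with a span of at most 1000 bases were taken from each list. Starts were counted from 0 and are printed 1-based. Of 3865 genes with such a peak, 3838 matched a RefSeq symbol of assembly GRCm38.p6, and all 3838 overlapped their position there. Partners were found by overlap of at least 1 base on the same strand, and the peak with most shared bases was paired. Differences are KO minus WT. Intervals are exact binomial (Clopper-Pearson, 95%) and cover counting only, and peaks are not replicates. IP efficiency and scaling may differ between the lists, so no test of genotype was made.

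Genes were named by rule: the 8 strongest in each list and the 8 strongest without a partner, the 8 pairs with the largest difference in each direction, the 6 genes with most such peaks, every writer, eraser and reader, Batf, and in each of 24 gene lists the 4 strongest genes and up to 3 with a peak in 1 genotype only. Others were added after their values were seen: the 16-fold peaks, the strongest with a partner, extremes of pairs of short coding-exon peaks, mitochondrial peaks, and further genes of the lists. Genes of the lists that are not described singly are covered by their group's counts. One gene that the rule names is not reported here. The peaks, lists and rules were chosen with earlier results of these data known.

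The alternatives were a span of at most 500 bases, an adjusted p of at most 0.001, a fold of at least 2, equal numbers of peaks, a reciprocal overlap of 50%, strand ignored, identical coordinates, both peaks short and coding, centred differences, and the mean over a gene's peaks. The pairing code was tested on simulated peaks. Computations used pandas 2.3.3 under Python 3.11.15, SciPy 1.17.1, numpy 2.4.6 and, for figures, matplotlib 3.10.9.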

Additional observations from a re-analysis of the deposited data

How the results depend on the processing

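With a span of at most 500 bases, the median log2 was 0.53 in the KO list and 0.63 in the WT list, the shares with a partner were 51.8% and 59.9%, the WT peaks had a median KO minus WT of -0.036 with 57.8% lower in KO, and 895 genes had such a peak in both lists. With an adjusted p of at most 0.001, the medians were 0.53 (KO) and 0.64 (WT), the shares with a partner 59.8% and 73.1%, the differences -0.16 from the KO list and -0.069 from the WT list, and the shares lower in KO 79.3% and 66.7%. With a fold of at least 2, there were 447 KO peaks on 382 genes and 559 WT peaks on 485 genes, 154 genes in both, with medians of 1.33 and 1.41, partner shares of 73.8% and 61.2%, lower in KO 62.4% and 83.9%, and a difference from the WT list of -0.39; selecting strong peaks in 1 list by itself raises that list's side. With equal numbers of peaks, the KO median was 0.53, its partner share 58.9%, its difference -0.17 and its share lower 79.8%. With a reciprocal overlap of 50%, the partner shares were 23.3% and 30.04%, the differences -0.10 and -0.083, and the shares lower 72.8% and 70.1%. With identical coordinates, the differences were -0.041 from either list, with 66.7% and 66.3% lower. With both peaks short and coding, they were -0.097 and -0.095, with 72.1% and 71.4% lower. Centred on all peaks, they were -0.033 from the KO list (54.8% lower) and 0.056 from the WT list (36.2% lower), a change of sign. Spans that are a multiple of 25, a choice made after seeing the data, gave medians of 0.57 and 0.67, partner shares of 59.9% and 63.0%, a difference from the KO list of -0.24 and 917 genes in both. Translation factors changed sign to -0.036 when each gene took the mean of its peaks and with an adjusted p of at most 0.001. Ignoring strand, or keeping partners of the same gene (also chosen after seeing the data), left all 6 and all 4 recomputed values within their intervals. Except where the construction shows it, the cause was not tested. No paired analysis was possible because the lists carry no replicate numbers, and no replicate could be left out since each genotype has 1 list. Exonic length and single-block peaks were not run, since the lists give no exon blocks. Depth is unknown, so the smallest enrichment that could be called in either list cannot be given.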

Other observations

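Genes of oxidative phosphorylation had the lowest share of genes with a short coding-exon peak among the KEGG pathways with at least 60 genes in the lists, a ranking made after the values were seen. The KO list had 15 of 106 (14.2%) and the WT list 10 of 104 (9.62%), beside 22.3% and 17.5% of all genes with a peak in the KO and WT lists. By the mean of both shares, estrogen signalling had the highest, 30 of 76 in the KO list (39.5%) and 25 of 76 in the WT list (32.9%). Single lists put others first, the prostate cancer pathway in the KO list (30 of 71, 42.3%) and thyroid hormone signalling in the WT list (31 of 91, 34.1%). RNA degradation had 25 of 70 (35.7%) and 23 of 70 (32.9%). Genes with such a peak had a median length of 27795 bases in the KO list and 28747 in the WT list, against 17068 and 17336 for other genes with a peak, and the part of gene length in these shares was not tested.

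In the mitochondrial transcripts, mt-Nd2 had short coding-exon peaks of 0.77 and 0.48 in the KO list and 0.52 in the WT list, and mt-Nd5 had one of 0.49 in the KO list only. Both encode subunits of respiratory complex I. A few short coding-exon peaks overlapped another peak of their own list, 25 in the KO list (0.598%) and 26 in the WT list (0.825%).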
